A study of Rattus norvegicus with 18 samples.

Results

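The comparison set 3 Glutamate_vesicles libraries against 3 Memantine libraries, which are 6 of the 18 libraries of the series. They were chosen by sample title and matched by the replicate number of the title. RNA was isolated from primary neuroglial cultures of the cortex of newborn Wistar rats on day 10 in vitro. Such cultures hold neurons together with astrocytes and other glia, and cytosine arabinoside had been used against dividing cells. Both groups were exposed to 100 µM glutamate, and RNA was taken 4 h later. The vesicle cultures had received extracellular vesicles of human glial progenitor cells the day before glutamate. These progenitors had been derived from induced pluripotent stem cells. The memantine cultures received 100 µM memantine together with glutamate. Glutamate is missing from their label, but the series' description gives memantine as the positive control of the glutamate model. The agent and the time of its addition therefore changed together and cannot be told apart. The 3 Control libraries (untreated cultures) and the 3 Glutamate libraries (glutamate alone) are given as background. Nothing in the labels says that libraries of a group came from separate cultures or animals, so that p-values measure only the spread between these samples.

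Excess glutamate opens NMDA receptors, calcium flows into neurons, and neurons are damaged, a process known as excitotoxicity. Memantine blocks the open channel of the NMDA receptor and so acts at the first step of this process. Extracellular vesicles are membrane-bound particles that carry proteins, lipids and RNA between cells, and both neurons and glia can take them up. The comparison therefore placed a receptor blocker beside a glial cell product under the same insult.

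The memantine libraries differed from each other, and on the second principal component Memantine 3 stood apart from Memantine 1 and Memantine 2. Memantine 1 and Memantine 2 correlated with each other at r = 0.75. Each correlated best with the vesicle library of its own number (0.92 and 0.91). Memantine 3 correlated better with Glutamate_vesicles 1 (Pearson r = 0.96 across 14398 genes, which are not independent replicates) and Glutamate_vesicles 3 (0.94) than with Memantine 1 (0.89) or Memantine 2 (0.73). On the second principal component of all 18 libraries Memantine 3 lay at 41.4, within the range of the 12 libraries of glutamate without memantine (-4.75 to 43.3, the vesicle libraries at 18.3, 27.5 and 43.3), whereas Memantine 1 and Memantine 2 lay at -82.0 and -64.2. The first component, with 53.7% of the variance, set Memantine 2 apart instead (152.5, beside -58.8 and -35.4 for Memantine 1 and Memantine 3). On the second component the library labelled Memantine 3 was thus placed with glutamate-treated libraries in general. Whether its treatment or label was as stated was not tested. The main results below are therefore given with and without Memantine 3. Leaving it out was decided with these values known. Memantine 3 correlated well with vesicle libraries, so leaving it out tends to widen the difference between the groups. Adjusted p-values and calls of that fit are therefore descriptions and carry no control of false calls. Total counts were 11381280 to 17206354 in the vesicle libraries and 11380907 to 13354633 in the memantine libraries. Ribosomal RNA took 5.28% to 13.4% of counts in the former and 4.16% to 13.9% in the latter. In the Control background it took 43.0% in Control 1, beside 6.80% and 6.58% in Control 2 and 3. Control 1 lay at -80.8 and -112 on the first and second component, Control 2 at 60.3 and -49.9, and Control 3 at 63.2 and -24.1. Control means and ranges below include Control 1.

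Markers of cell types were checked in every library. The 14 neuron markers, among them Rbfox3, Tubb3 and Stmn2, summed to 1609, 1304 and 1150 CPM (counts scaled to a common library size) in Glutamate_vesicles 1, 2 and 3. The sums were 5250, 3511 and 1170 CPM in Memantine 1, 2 and 3. Memantine 1 and 2 thus lay in or above the range of Control (3192 to 4429 CPM), and Memantine 3 lay just under the range of Glutamate (1243 to 1929 CPM). Astrocyte markers summed to 7549, 7471 and 3802 CPM in the vesicle libraries and to 4942, 3995 and 11418 CPM in the memantine libraries, so that Memantine 3 was the highest of the 6. Memantine 3 was also highest for microglia markers, with 602 CPM beside 61.8 and 90.7 CPM in the other two memantine libraries and 123 to 275 CPM in the vesicle libraries. All 14 neuron, 12 astrocyte and 12 microglia markers had counts. Endothelial markers summed to at most 6.50 CPM in any of the 6 libraries. In RNA of whole cultures, fewer cells of a type and less RNA per cell cannot be told apart.

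**Figure D1:**
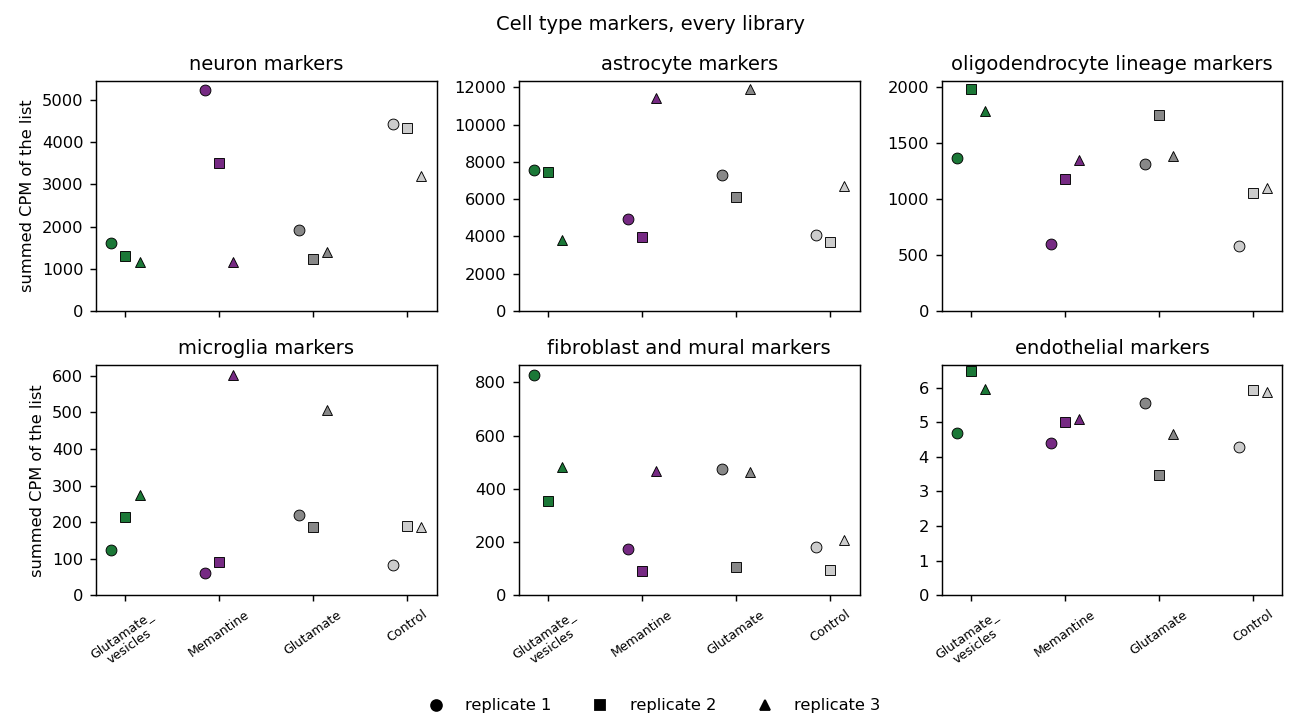
Summed CPM of 6 lists of cell type markers (y axes, each starting at 0) in the 3 libraries of Glutamate_vesicles, Memantine, Glutamate and Control (x axes); each symbol is 1 library and its shape gives the replicate number. Neuron markers were at 5250 and 3511 CPM in Memantine 1 and 2 and between 1150 and 1609 CPM in Memantine 3 and the vesicle libraries.

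Under glutamate, many neuronal genes were lower with vesicles than with memantine, and genes of the extracellular matrix and of membrane repair, with the chemokines Ccl2 and Ccl7, were higher. Few of these differences passed a test over all genes. With all libraries, only Gja5 was called in the quasi-likelihood test of edgeR with the replicate number as a block (adjusted p below 0.05), which is 0.00695% of 14398 genes. By a looser criterion that carries no control of false calls (unadjusted p below 0.05 and a fold above 1.5), 583 genes were higher with vesicles (4.05%) and 1193 were lower (8.29%). Without the block no gene was called, 1038 genes had an unadjusted p below 0.05, and 1034 genes met the looser criterion (7.18%), 180 of them higher. DESeq2 with the block called 467 genes (3.24%), and the likelihood-ratio test, which the study names without giving its model, called 11 when run without the block (0.0764%).

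Many more genes were called without Memantine 3, a library left out with its placing known. The same fit then called 375 genes higher with vesicles (2.56% of 14650) and 798 lower (5.45%). Of the 1193 genes that met the looser criterion as lower with all libraries, 783 were called lower without Memantine 3. Of the 583 higher ones, 217 were called higher. Leaving out Memantine 1 brought the count by the looser criterion from 1776 to 870, leaving out Memantine 2 to 1113, and leaving out Glutamate_vesicles 1 to 1110. Without Memantine 3 it was 3576 of 14650 genes, 1738 higher and 1838 lower. The list counts given below for that fit stand beside these counts over all genes.

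**Figure D2:**
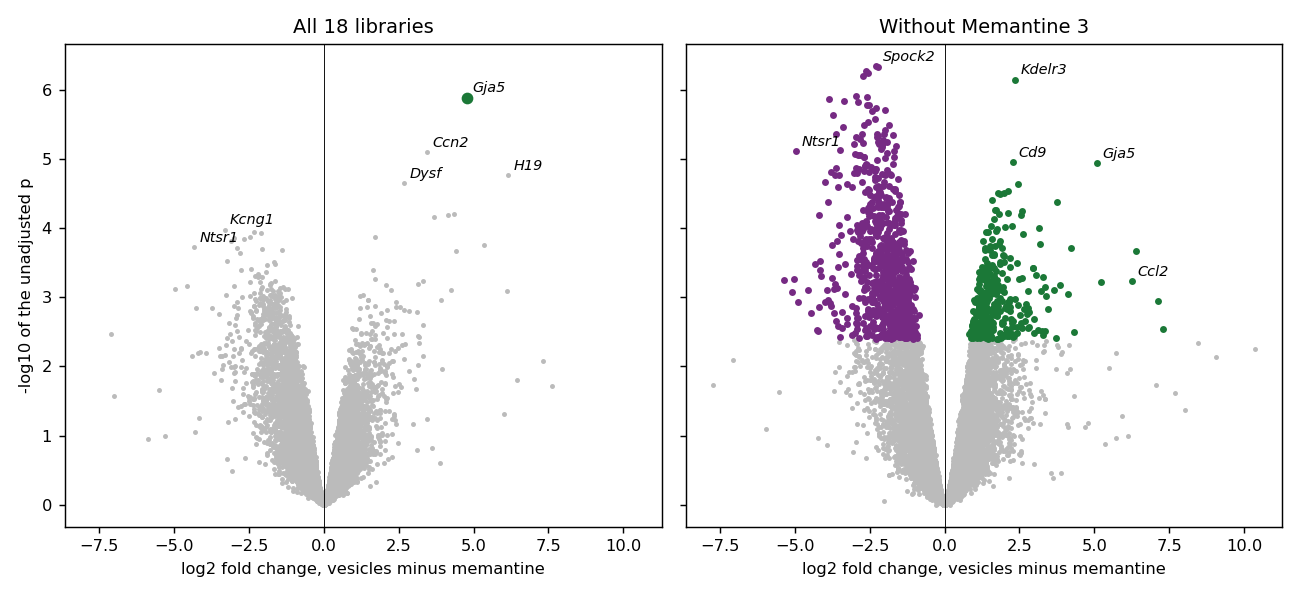
Log2 fold change, Glutamate_vesicles minus Memantine (x axes), against -log10 of the unadjusted p (y axes) for 14398 genes in the fit of all 18 libraries (left) and for the same genes without Memantine 3 (right); called genes are green where higher with vesicles and purple where lower. On the left only Gja5 is called, and on the right 375 genes are called higher and 795 lower (3 more called genes were tested only in the fit without Memantine 3).

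The differences also varied by replicate number. Across genes, the log2 differences between vesicle and memantine libraries of number 1 and of number 2, which share no library, correlated with r = 0.54. The differences of number 3 correlated with those of number 1 with r = 0.08 and with those of number 2 with r = -0.20. The difference was above 1 in size, a fold change of 2, for 32.8% of genes in number 1, 29.3% in number 2 and 18.9% in number 3. In all 3 numbers together, 2431 genes were higher with vesicles and 2014 were lower. The ranges of the 3 vesicle and the 3 memantine libraries did not overlap for 425 genes that were higher (2.95%) and 336 that were lower (2.33%).

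Gja5 encodes connexin 40, a gap junction protein best known from arterial endothelium and the cardiac conduction system. It stood at 22.8, 14.0 and 18.7 CPM in Glutamate_vesicles 1, 2 and 3 and at 0.751, 0.389 and 0.862 CPM in Memantine 1, 2 and 3. The memantine values rest on 7, 7 and 12 counts, and every vesicle library lay far above every memantine library. The log2 fold change was 4.79 (SE 0.64, adjusted p = 0.0187 in edgeR's quasi-likelihood test). Gja5 was at 0.394 ± 0.269 CPM in Control, 1.41 ± 0.931 CPM in Glutamate, 3.59 ± 0.680 CPM in Glutamate_secret and 7.07 ± 3.54 CPM in Glutamate_BPC (SD, n = 3 each), the groups given other material of the progenitor cells. The call was lost in several settings. The adjusted p was 0.0659 without the block, 0.0676 without Glutamate_vesicles 1, 0.0974 without Glutamate_vesicles 3, 0.193 without Memantine 1 and 0.317 without Memantine 2. Without Memantine 3 it was 0.00291, with a log2 fold change of 5.09. The endothelial markers stayed at or under 6.50 CPM in sum, but only 3 of the 12 passed the filter on low counts and Cldn5 was absent. The part of such cells in Gja5 was not tested. Among the 9 tested connexins and pannexins Gja5 was the only member that met the looser criterion with all libraries (2 were higher and 1 lower without Memantine 3), and the median log2 fold change of the list was -0.07, beside 0.05 over all genes.

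Ccn2, a matricellular protein also called connective tissue growth factor and a familiar target of YAP and TEAD transcription factors, had the next smallest p. It stood at 31.9, 65.4 and 41.5 CPM in the vesicle libraries and at 3.75, 5 and 3.73 CPM in the memantine libraries, and the groups did not overlap. The log2 fold change was 3.45 (SE 0.54, adjusted p = 0.0572), and it was 3.77 without Memantine 3 (adjusted p = 0.00486). Glutamate stood at 14.4 ± 11.6 CPM and Control at 5.35 ± 0.909 CPM (SD, n = 3 each). The memantine libraries were thus near Control and the vesicle libraries above Glutamate. Glutamate itself was spread, and Glutamate 3 lay among the memantine libraries (log2 CPM 2.08 beside 1.96 to 2.36).

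The 250 bases before the annotated start of these genes are shown because they lead the comparison, one by its call and the other by its p. They come from RefSeq, assembly GRCr8, 5′ to 3′ on the strand of the gene. The files were made with another build, so these coordinates do not carry over to them. Capitals mark the letters GGAATG, the core that TEAD factors bind, and TATAAA, the TATA box, searched on both strands.
Gja5, chr2:187290977-187291226, plus strand: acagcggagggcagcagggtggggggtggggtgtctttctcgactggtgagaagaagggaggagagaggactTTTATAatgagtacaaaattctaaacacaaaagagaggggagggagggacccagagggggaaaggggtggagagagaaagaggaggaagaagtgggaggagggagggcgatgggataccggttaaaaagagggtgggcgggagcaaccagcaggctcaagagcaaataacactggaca
Ccn2, chr1:22624615-22624864, minus strand: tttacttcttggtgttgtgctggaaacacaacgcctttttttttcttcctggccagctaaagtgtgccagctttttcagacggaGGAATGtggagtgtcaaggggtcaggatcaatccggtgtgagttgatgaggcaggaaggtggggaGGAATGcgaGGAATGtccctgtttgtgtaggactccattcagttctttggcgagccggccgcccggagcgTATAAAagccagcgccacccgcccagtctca
The Ccn2 window held GGAATG at 166, 101 and 92 bases before the start and TATAAA at 31 bases. The Gja5 window held the TATA letters once, on the opposite strand and 178 bases before the start. Of 33469 RefSeq windows of this length, 12.1% held GGAATG and 12.9% held TATAAA on either strand. Among the 10625 tested genes with a window, the shares were 9.62% and 6.26%. A match describes the letters and was not tested as a binding site.

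Other genes with the smallest p among those higher with vesicles were H19, Dysf, Adamtsl3, S100a11, Nrarp, Ccl2, Ccl7 and Kdelr3. With all libraries edgeR's quasi-likelihood test called none of these 8, whereas DESeq2 and the likelihood-ratio test, both with the block, called all 8. Without Memantine 3 the quasi-likelihood test called each of them. H19, an imprinted long non-coding RNA, stood at 126, 1.76 and 51.2 CPM in the vesicle libraries and at 1.07, 0 and 1.15 CPM in the memantine libraries. Glutamate_vesicles 2 was thus close to the memantine libraries, and the log2 fold change of 6.16 (SE 1.02, adjusted p = 0.0808) rested on the other two. Igf2, the growth factor gene that neighbours H19 in the same imprinted domain, had a like order, with 6.68, 0.401 and 5 CPM against 0.322, 0.278 and 1.01 CPM. Its log2 fold change was 2.60 (SE 0.76, adjusted p = 0.173, and 0.0436 without Memantine 3).

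The chemokine genes Ccl2 and Ccl7, which draw monocytes, were the largest differences among inflammatory genes. Ccl2 stood at 95.3, 83.2 and 386 CPM with vesicles and at 3.00, 1.67 and 9.26 CPM with memantine. Ccl7 stood at 44.0, 19.7 and 109 CPM and at 2.15, 0.833 and 5.03 CPM. Both were apart in every library, and the highest memantine value of each was that of Memantine 3. The log2 fold changes were 5.35 (SE 1.10, adjusted p = 0.148) for Ccl2 and 4.42 (SE 0.93, adjusted p = 0.148) for Ccl7, and without Memantine 3 they were 6.27 (adjusted p = 0.0172) and 5.21 (adjusted p = 0.0174). Glutamate alone held 33.7 ± 44.0 CPM of Ccl2 and Control 2.41 ± 2.59 CPM (SD, n = 3 each). In log2 CPM, Glutamate 1 (6.40) lay within the vesicle range (6.38 to 8.59), and Glutamate 2 and 3 lay at 2.31 and 3.60. Most of the list did not share this difference. Of 17 tested cytokine, chemokine and NF-kB target genes, 4 met the looser criterion as higher (Ccl2, Ccl7, Cxcl1 and Lcn2) and 1 as lower, and the median log2 fold change was 0.24. The lower one was Ptgs2, the inducible cyclooxygenase, with 9 counts over the vesicle libraries and 62 over the memantine libraries. Cxcl1, a neutrophil chemokine, had 137 and 11 counts. Microglia markers were highest in Memantine 3, and without it 4 of 12 met the looser criterion as higher with vesicles. Their part in these values was not tested.

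**Figure D3:**
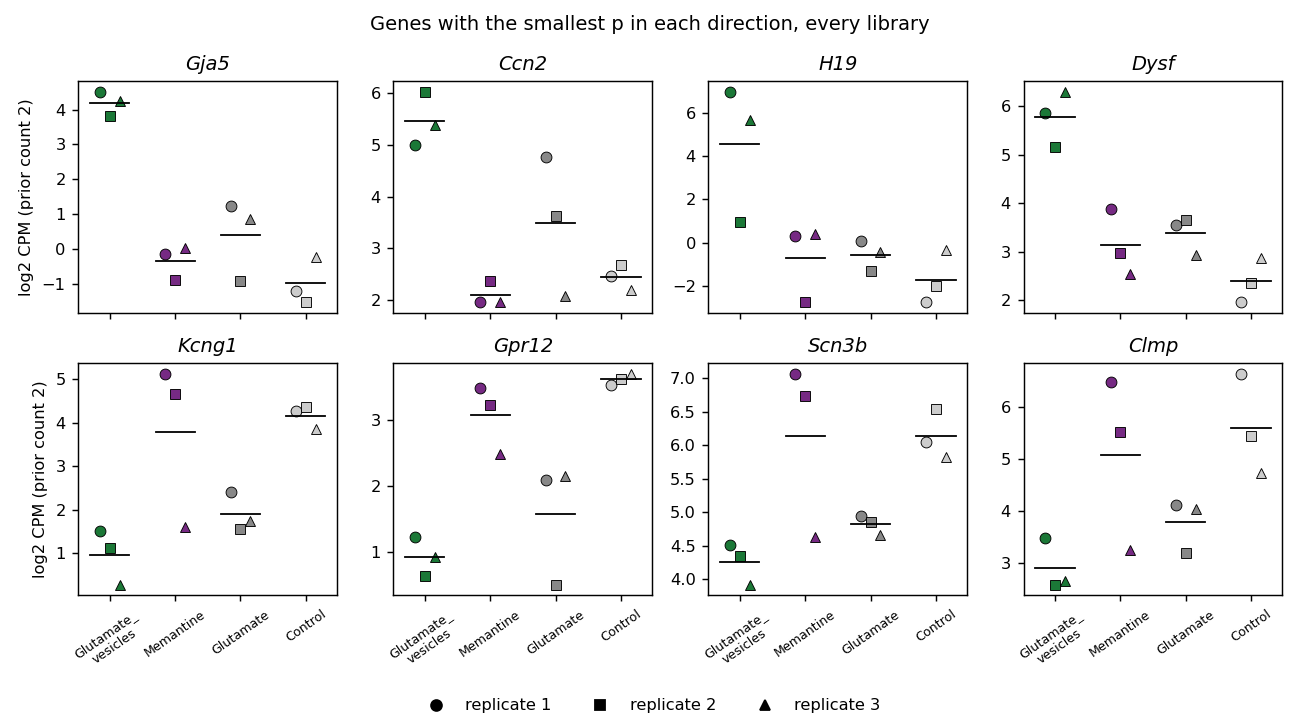
Log2 CPM with a prior count of 2 (y axes) of the 4 genes with the smallest p that were higher with vesicles (top) and the 4 that were lower (bottom), in Glutamate_vesicles, Memantine, Glutamate and Control; each symbol is 1 library, its shape the replicate number, and each line a group mean. Gja5, Ccn2, H19 and Dysf lie higher in every vesicle library than in any memantine library, and for Kcng1, Scn3b and Clmp Memantine 3 lies near the vesicle libraries.

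Genes of membrane repair had members on the higher side only. Dysferlin, annexins and S100 partners patch holes in the plasma membrane when calcium enters. All 15 tested members had a log2 fold change above 0, 9 met the looser criterion and none of them was lower, and the median was 1.26. In numbers 1, 2 and 3 the median of the list was 1.74, 1.54 and 0.35. Without Memantine 3, 7 were called higher, and leaving out any other of the 6 libraries left 6 to 10 members that met the looser criterion. Without the block 4 did so. No member was called with all libraries in edgeR's quasi-likelihood test. Fibroblast and mural markers and oligodendrocyte lineage markers had medians of 1.02 and 0.82 in the same comparison, and their part in this list was not tested.

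Dysf, the dysferlin gene, led the list. It stood at 58.4, 35.8 and 79.1 CPM with vesicles and at 14.6, 7.66 and 5.67 CPM with memantine. The groups did not overlap, and Memantine 3 was the lowest library, so that this gene did not follow the placing of Memantine 3 beside the vesicle libraries. The log2 fold change was 2.68 (SE 0.46, adjusted p = 0.0808) with all libraries and 2.42 without Memantine 3 (adjusted p = 0.0127). S100a11, a partner of annexin A1, stood at 34.7, 3.41 and 24.3 CPM against 1.18, 0.500 and 2.37 CPM. Its log2 fold change was 3.68 (SE 0.69), and Glutamate_vesicles 2 was again the lowest of its group. Anxa5 had 83.2, 68.4 and 115 CPM against 32.6, 19.4 and 63.1 CPM. Anxa1 had 50.4, 47.1 and 58.6 CPM against 5.79, 5.33 and 50.2 CPM. Anxa5 kept the groups apart, whereas Anxa1 in Memantine 3 lay within the vesicle range. Without Memantine 3 the log2 fold changes were 1.69 for Anxa5 (adjusted p = 0.0184) and 2.95 for Anxa1 (adjusted p = 0.0137).

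Matrix genes followed the same direction. Of 23 tested glycoproteins, matricellular proteins and matrix enzymes, 10 met the looser criterion as higher with vesicles and 1 as lower, and the median log2 fold change was 1.03. The medians in numbers 1, 2 and 3 were 1.33, 1.37 and 0.83. In this list number 3 thus kept the direction of the other two, and leaving out any 1 of the 6 libraries left 9 to 12 genes higher. Without Memantine 3, 6 were called higher, among them Ccn2, its relative Ccn1, Fbln2, Fbln5, Spp1 and Timp1. Fbln2, a basement membrane fibulin, stood at 659, 409 and 491 CPM against 174, 79.0 and 135 CPM, and no vesicle library fell within the memantine range. Its log2 fold change was 2.07 (SE 0.49) with all libraries, where edgeR's quasi-likelihood test did not call it. In the same test without Memantine 3 the adjusted p was 0.0454. Spp1, which encodes osteopontin and is made by activated microglia among other cells, had 62.7, 92.2 and 172 CPM against 4.83, 12.1 and 75.1 CPM. Here Memantine 3 lay inside the vesicle range. Postn, the periostin gene, had 129 counts over the vesicle libraries and 2 over the memantine libraries, a ratio of 47.9 after scaling (95% exact interval 13.0 to 400, for counting error only), and 99 of the 129 counts came from Glutamate_vesicles 3. The 1 lower member was Eln, which encodes elastin, with 14.7, 24.4 and 16.4 CPM against 38.5, 22.2 and 38.8 CPM.

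Collagens and adhesion genes were described beside the matrix list. Of 13 collagens 3 met the looser criterion, all higher (Col18a1, Col1a1 and Col11a1), and the median log2 fold change was 0.88. Without Memantine 3, 2 met it as higher and 2 as lower and none was called, beside 1738 higher and 1838 lower of 14650 genes. Without Glutamate_vesicles 1 only 1 collagen met the looser criterion. Of 16 integrin and focal adhesion genes 4 met it as higher and none as lower, with a median of 0.61. These were Itga5, Itgav, Flna and Vim. Vim, the intermediate filament of astrocytes and mesenchymal cells, stood at 1761, 854 and 1455 CPM against 346, 193 and 872 CPM, and only Memantine 3 (872) passed the lowest vesicle library (854). The log2 fold change was 1.72 (SE 0.48, adjusted p = 0.161), and it was 2.16 without Memantine 3 (adjusted p = 0.0253). In TGF-beta and BMP signalling, Ltbp1, which stores latent TGF-beta in the matrix, was higher and Tgfb2, one of the ligands, was lower. Tgfb2 had 47.3, 34.5 and 31.0 CPM against 188, 105 and 59.3 CPM, with all vesicle libraries under all memantine libraries (log2 fold change -1.56, SE 0.40, adjusted p = 0.154, and 0.0177 without Memantine 3). Fibroblast and mural markers share Col1a1, Col1a2 and Col3a1 with the collagen list. They summed to 828, 356 and 484 CPM with vesicles and to 174, 89.3 and 467 CPM with memantine. Of 14 such markers 7 passed the filter on low counts, and Dcn, Lum, Acta2, Des and Rgs5 were among those that did not. The part of such cells in the matrix genes was not tested.

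Lists of synaptic, receptor and channel genes held mostly members that were lower with vesicles. The synaptic vesicle release machinery, the proteins that fill, dock and fuse transmitter vesicles, had 17 of 21 tested genes that met the looser criterion as lower with vesicles and none as higher. The median log2 fold change was -1.42, beside 0.05 over all genes. The list summed to 811, 750 and 543 CPM in the vesicle libraries and to 3514, 2543 and 631 CPM in the memantine libraries. Control stood at 1920.5 to 2347 CPM and Glutamate at 576 to 1178 CPM. Memantine 1 and 2 were thus above Control, while Memantine 3 and the vesicle libraries were in or near the range of Glutamate. The list medians in numbers 1, 2 and 3 were -1.79, -1.86 and -0.15. Without Memantine 3, 17 of the 21 were called lower. Without Memantine 2 the looser criterion counted 10. Neuron markers moved with this list, as given above, with 9 of 14 lower by the looser criterion and 7 called without Memantine 3. Those 9 became 3 without Memantine 1, 5 without Memantine 2, 5 without Glutamate_vesicles 2 and 6 without Glutamate_vesicles 1. The part of fewer neurons in it was not tested.

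Dnm1, which encodes the dynamin that recycles synaptic vesicles, had the smallest p of the list. It stood at 33.4, 27.5 and 18.1 CPM with vesicles and at 314, 134 and 24.3 CPM with memantine. Memantine 3 lay inside the vesicle range and far under the other two memantine libraries. The log2 fold change was -2.32 (SE 0.57, adjusted p = 0.154), and it was -2.86 without Memantine 3 (adjusted p = 0.00300). Syp, which encodes synaptophysin, stood at 169, 82.6 and 73.6 CPM against 994, 268 and 129 CPM. Syt1, the calcium sensor of release, stood at 38.6, 11 and 7.04 CPM against 185, 142 and 16.2 CPM. Sv2a, a vesicle glycoprotein, stood at 51.5, 37.9 and 29.6 CPM against 155, 159 and 37.9 CPM. In each of these genes Memantine 1 and 2 were above every vesicle library and Memantine 3 was not. Their log2 fold changes without Memantine 3 were -2.26 for Syp, -3.44 for Syt1 and -1.93 for Sv2a, all called. Slc17a7, the vesicular glutamate transporter that loads glutamate into these vesicles, had 9.37, 6.74 and 2.87 CPM against 104, 80.3 and 8.26 CPM (log2 fold change -3.24, SE 0.71, adjusted p = 0.154, and 0.00302 without Memantine 3).

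**Figure D4:**
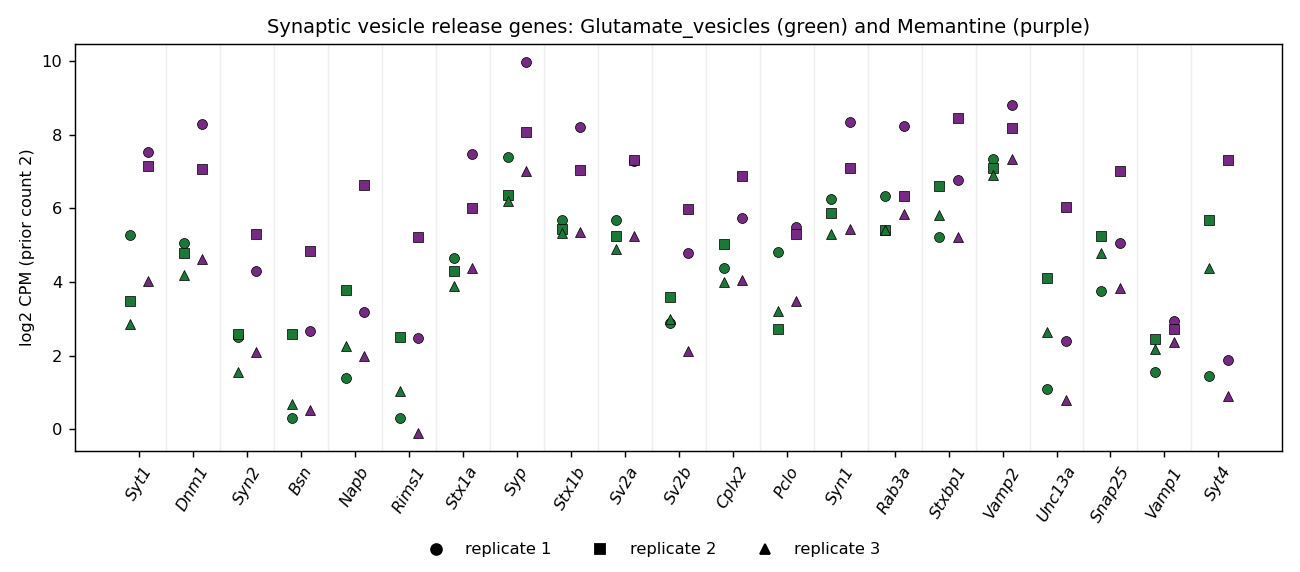
Log2 CPM with a prior count of 2 (y axis) of the 21 tested genes of synaptic vesicle release (x axis, ordered by fold change) in the Glutamate_vesicles libraries (green) and the Memantine libraries (purple); each symbol is 1 library and its shape gives the replicate number. For Dnm1, Syp, Syt1 and Sv2a the purple circle and square (Memantine 1 and 2) lie above all green symbols, and the purple triangle (Memantine 3) lies among or near them.

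Receptors of glutamate, of which memantine blocks the NMDA type, were lower with vesicles in part. Of 15 tested ionotropic receptor subunits 5 met the looser criterion as lower (Grin1, Grin2b, Grik2, Gria1 and Grik1) and none as higher. The median log2 fold change was -0.78, and by number it was -1.17, -1.22 and 0.47. Grin1, the obligatory subunit of NMDA receptors, stood at 30.4, 25.3 and 17.6 CPM with vesicles and at 197, 109 and 22.6 CPM with memantine. Grin2b, a glutamate-binding NMDA subunit, stood at 9.66, 7.14 and 4.52 CPM against 38.7, 62.3 and 3.38 CPM. Memantine 3 lay within the vesicle range for Grin1 and below it for Grin2b. The log2 fold changes were -2.0 (SE 0.52, adjusted p = 0.154) and -2.08 (SE 0.66, adjusted p = 0.193), and all 5 genes were called lower without Memantine 3. The count of 5 was 3 without Glutamate_vesicles 1, without Memantine 1 or without Memantine 2. In Control Grin1 stood at 78.7 CPM on average and in Glutamate at 25.4 CPM.

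Scaffolds and auxiliary proteins of these receptors had 12 of 20 genes lower by the looser criterion and none higher. The median log2 fold change was -0.95, and by number it was -1.32, -1.53 and 0.19. Without Memantine 3, 10 were called lower. Leaving out Memantine 2 brought the 12 to 4, Memantine 1 to 6, Glutamate_vesicles 1 to 7 and Glutamate_vesicles 2 to 6. Camk2b, a subunit of the calcium-dependent kinase of the postsynaptic density, stood at 123, 88.0 and 86.2 CPM against 527, 426 and 79.0 CPM. Shank2, a scaffold, stood at 8.07, 18.8 and 7.82 CPM against 26.4, 97.5 and 7.97 CPM. Both showed Memantine 3 at the level of the vesicle libraries. Of 6 metabotropic receptors 3 were lower, Grm7 and Grm2 among them, and all 6 had a log2 fold change below 0. Their median by number was -1.21, -1.30 and 0.36. Grm7 had 17 counts over the vesicle libraries and 206 over the memantine libraries, 199 of them in Memantine 2. Without Memantine 2 no metabotropic receptor met the looser criterion, and 1 did so without Glutamate_vesicles 1.

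Inhibitory genes had the same direction as excitatory ones in numbers 1 and 2. The list median in numbers 1, 2 and 3 was -1.33, -2.12 and 0.35. Over the alternatives it ranged from -2.22 to 0.39 and so changed sign. Of 16 genes for GABA synthesis, transport and reception all had a log2 fold change below 0, 8 met the looser criterion, and 6 were called without Memantine 3. Without Memantine 2 only 3 met the looser criterion, and without Glutamate_vesicles 1 it was 4. Gad1, which makes GABA from glutamate, stood at 69.4, 54.1 and 48.0 CPM against 191, 153 and 44.5 CPM. Gad2, its sister enzyme, stood at 7.87, 7.46 and 4.52 CPM against 23.2, 40.6 and 5.10 CPM. Gabbr2, a subunit of the metabotropic GABA receptor, had 10.3, 23.1 and 7.82 CPM against 51.8, 104 and 9.26 CPM. Gabrb1, a subunit of the GABA-gated chloride channel, differed from these in that Memantine 3 stayed with its group. It stood at 2.49, 2.97 and 1.36 CPM against 12.6, 9.38 and 8.76 CPM (log2 fold change -2.14, SE 0.53, adjusted p = 0.154, and 0.0210 without Memantine 3).

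Voltage-gated channels and calcium handling genes had the same direction in numbers 1 and 2. In numbers 1, 2 and 3 the medians were -1.21, -1.87 and 0.01 for channels and -0.85, -1.18 and -0.46 for calcium genes. Of 22 calcium, sodium and potassium channel genes 11 met the looser criterion as lower and 1 as higher, with a median log2 fold change of -1.24. The 11 were called lower without Memantine 3, and 5 met the looser criterion without Memantine 2. Scn3b, an auxiliary sodium channel subunit named for its small p, stood at 22.6, 20.1 and 15 CPM against 133, 106 and 24.6 CPM. The groups did not overlap, although Memantine 3 was close to the vesicle libraries (log2 fold change -2.10, SE 0.42, adjusted p = 0.146, and -2.55 with adjusted p = 0.00174 without Memantine 3). Of 17 genes for calcium pumps, exchangers and buffers 7 were lower by the looser criterion, and 4 were without Memantine 2. Atp2b4, a plasma membrane calcium pump, stood at 16.0, 19.9 and 14.7 CPM against 97.1, 170 and 20.3 CPM. Atp2b2 and Atp2b3, pumps of the same family, had log2 fold changes of -1.87 (SE 0.49) and -2.27 (SE 0.60). All 3 pumps were called lower without Memantine 3. Calb1, a calcium buffer, stood at 8.97, 5.81 and 5.88 CPM against 16.3, 13.4 and 11.6 CPM, with the groups apart in all 6 libraries (log2 fold change -1.03, SE 0.31, adjusted p = 0.174).

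The other genes with the smallest p among those lower with vesicles were Kcng1, Gpr12, Clmp, Rgs6, Col26a1, Adamts15, Ntsr1, Stum and Hpcal4. Kcng1, a modifier subunit of potassium channels, stood at 2.69, 2.04 and 1.07 CPM against 34.7, 25.2 and 2.87 CPM (log2 fold change -3.31, SE 0.65, adjusted p = 0.146). Gpr12, an orphan receptor, stood at 2.19, 1.40 and 1.75 CPM against 11.1, 9.27 and 5.46 CPM. Ntsr1, the neurotensin receptor, stood at 0.598, 1.16 and 0.389 CPM against 18.2, 29.9 and 1.44 CPM. In all 10 genes of this kind, Scn3b included, Memantine 3 was the lowest memantine library, and in all 10 the Glutamate mean was nearer on the log2 scale to the vesicle mean than to the memantine mean. Of the 10 genes with the smallest p among those higher with vesicles, the Glutamate mean was nearer to the vesicle mean for 2.

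The fit without Memantine 3 gave its smallest p to Usp29, Spock2, Pgm2l1, Scn3b and Amer3 on the lower side and to Kdelr3, Cd9, Gja5, Tagln2 and Diablo on the higher side. Spock2, a brain proteoglycan, stood at 65.3, 69.0 and 49.1 CPM with vesicles and at 369, 256 and 53.3 CPM with memantine. Without Memantine 3 its log2 fold change was -2.23 (adjusted p = 0.00174). Kdelr3, a receptor that returns proteins to the endoplasmic reticulum, stood at 66.5, 25.9 and 46.8 CPM against 11.7, 5.33 and 32.5 CPM. Its log2 fold change without Memantine 3 was 2.36 (adjusted p = 0.00174). Cd9, a membrane tetraspanin often used as a vesicle marker, stood at 96.2, 85.9 and 104 CPM against 16.8, 17.5 and 138 CPM. Memantine 3 held more Cd9 than any vesicle library, so that the log2 fold change was 1.21 with all libraries (adjusted p = 0.313) and 2.27 without Memantine 3 (adjusted p = 0.00287).

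**Figure D5:**
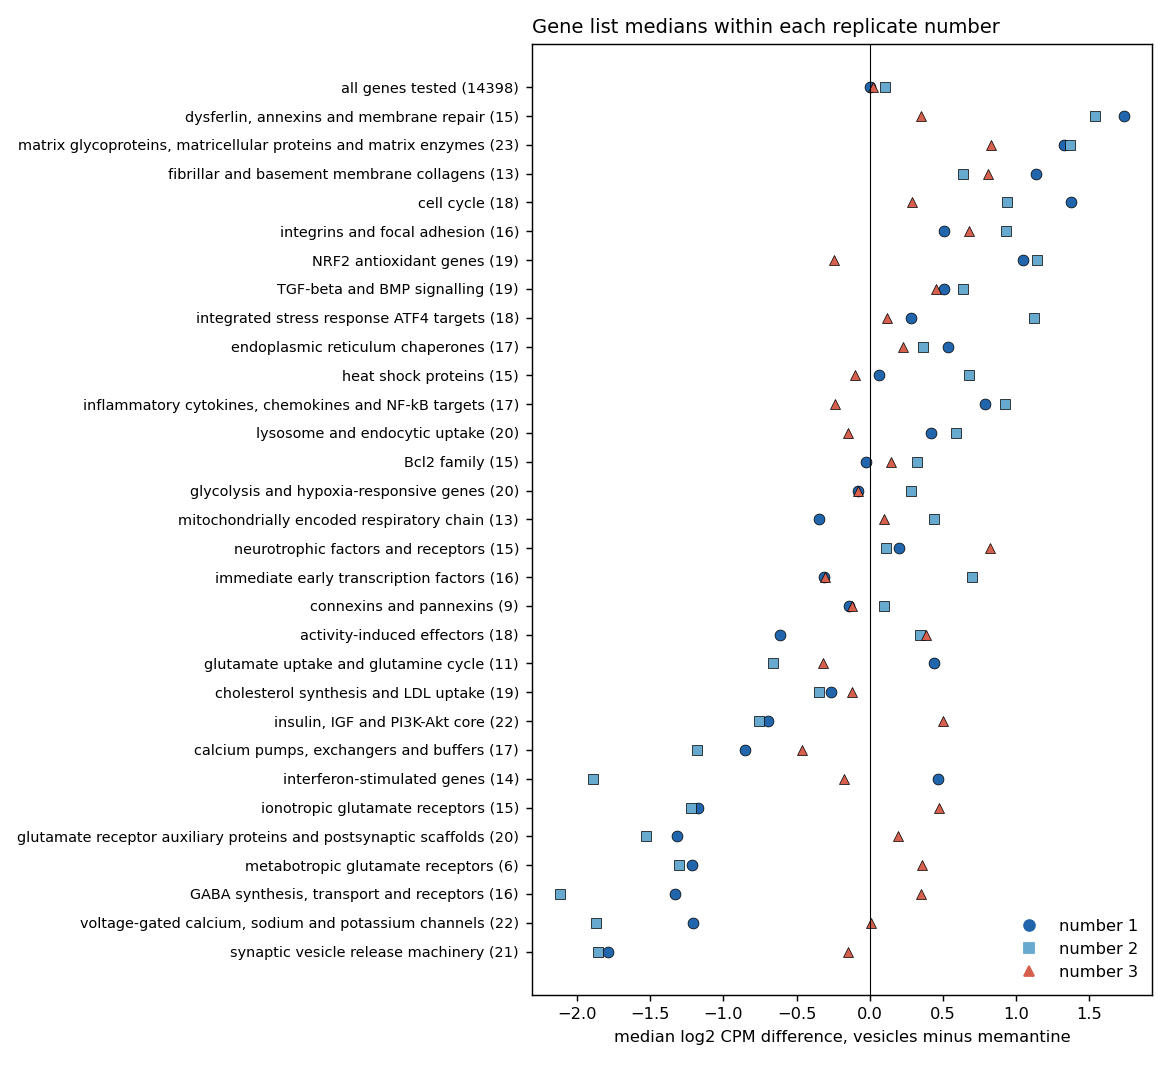
Median log2 CPM difference, Glutamate_vesicles minus Memantine, within libraries of replicate number 1, 2 and 3 (x axis) for 30 gene lists and for all genes tested (y axis, number of genes tested in brackets). Lists of synaptic, receptor and channel genes lie between -2.12 and -1.17 in numbers 1 and 2 and between -0.15 and 0.47 in number 3, while the matrix list lies at 1.33, 1.37 and 0.83.

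Glial and proliferative genes were described last. Of 14 oligodendrocyte lineage markers 4 met the looser criterion, all higher with vesicles, with Olig1, Olig2 and Mbp among them, and 3 were called without Memantine 3. Without Memantine 1 the count of 4 was 2. Olig1, a lineage transcription factor, stood at 496, 389 and 637 CPM against 186, 115 and 337 CPM, and the groups did not overlap. Its log2 fold change was 1.30 (SE 0.32, adjusted p = 0.154), and without Memantine 3 it was 1.71 (adjusted p = 0.00736). The sum of the list was 1367 to 1981 CPM with vesicles and 595 to 1350.3 CPM with memantine, with Memantine 3 the highest of its group. Of 18 cell cycle genes 10 met the looser criterion as higher, with a median log2 fold change of 0.73, and 6 were called without Memantine 3. This count rested on single libraries, since it was 0 without Memantine 2, 0 without Glutamate_vesicles 1, 1 without Memantine 1 and 5 without Glutamate_vesicles 3, and it was 2 without the block. Cdk1, the mitotic kinase, stood at 36.3, 26.1 and 45.8 CPM against 10.1, 9.66 and 47.9 CPM, with Memantine 3 the highest library of all 6. Of 11 astrocyte markers 1 (Aldoc) met the looser criterion, as lower. Aldoc stood at 294, 194 and 90.3 CPM against 418, 154 and 822 CPM, and without Memantine 3 its log2 fold change was -0.45 (adjusted p = 0.570). None of the 12 microglia markers met the criterion with all libraries. Without Memantine 3, 4 met it as higher with vesicles, 1 was called, and the median log2 fold change went from 0.37 to 1.28.

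By the looser criterion trophic genes and activity-induced effectors held members in both directions, and the stress lists given here held higher ones only. Of 18 activity-induced effectors 3 met the looser criterion as higher (Vgf, Dusp6 and Nptx2) and 4 as lower (Penk, Nptx1, Pcsk1 and Rgs2). Without Memantine 3, Nptx2 was called higher and Nptx1 lower, and without Memantine 2 only 1 gene of the list met the criterion. Igf1, a neurotrophic growth factor, stood at 10.6, 10.8 and 10.5 CPM with vesicles and at 67.8, 39.6 and 22.0 CPM with memantine. The vesicle libraries were nearly level and all under the memantine libraries, and the log2 fold change was -2.08 (SE 0.50, adjusted p = 0.154, and 0.00520 without Memantine 3). Fgf2, Igf2 and Vegfa were the 3 members of 15 that met the looser criterion as higher. Of 16 immediate early transcription factors, which neurons switch on with activity, 2 met it as lower (Nr4a3 and Fosb) and none as higher, with a median log2 fold change of -0.05. Without Memantine 3, 2 met it as lower and 3 as higher with a median of 0.28, and without Memantine 1 none met it. Over all genes the fit without Memantine 3 counted 1838 of 14650 as lower and 1738 as higher. Nr4a3 stood at 4.08, 4.77 and 3.74 CPM against 23.2, 6.72 and 7.47 CPM, and the groups did not overlap (log2 fold change -1.50, SE 0.48, adjusted p = 0.196). Fos, the best known of them, stood at 36.4, 24.9 and 23.8 CPM against 47.2, 19.7 and 40.9 CPM (adjusted p = 0.793). Of 18 ATF4 targets of the integrated stress response 3 were higher by the looser criterion (Shmt2, Asns and Ddit4), and of 19 NRF2 antioxidant genes 2 were. Without Memantine 2 these counts were 1 and 0, and without Memantine 3 they were 7 and 9.

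Among glycolytic and hypoxia-responsive genes 5 of 20 were lower by the looser criterion and none was higher, and the list median of 0.06 was near the 0.05 of all genes. The 5 were Ndrg1, Eno2, Slc2a3, Hk1 and Aldoc, and leaving out Memantine 1 brought the count to 2. It was 3 without Glutamate_vesicles 1, Glutamate_vesicles 3 or Memantine 2. Ndrg1, a stress-responsive gene, stood at 18, 19.3 and 13.9 CPM against 149, 137 and 19.5 CPM (log2 fold change -2.43, SE 0.55, adjusted p = 0.154). Eno2 and Slc2a3 are the neuronal enolase and the neuronal glucose transporter, and Eno2 is also one of the neuron markers. They and Ndrg1 were called lower without Memantine 3, with log2 fold changes of -1.43, -2.35 and -2.95.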

How the data were processed

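The authors deposited expected counts, estimated reads per gene from Salmon summed with tximport, without scaling. The submitters' notes also name STAR and the build rn6. The labels and the paper name different sequencing platforms, so no property of a platform was used. Each file held 31463 rows, and counts were rounded. Genes passing filterByExpr of edgeR 4.0.16 in R 4.3.3 (minimum count 10, minimum total 15) were tested with the two-sided quasi-likelihood test on all 18 libraries (TMM scaling, group plus replicate number, Benjamini-Hochberg adjustment). SE came from the F statistic. CPM are at the TMM-scaled library size, and library totals limit counting precision only. The design had been written for counts.

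The comparison pairs libraries by the number in the titles. Deviations from the group mean correlated between libraries of the same number in numbers 1 and 2 (r = 0.72 and 0.85). For number 3 r was 0.16. Between libraries of different numbers r ran from -0.80 to 0.36, the highest being Glutamate_vesicles 1 with Memantine 3. The value of number 3 was under that one and close to the next highest, 0.15 for Glutamate_vesicles 3 with Memantine 2. Deviations from a mean of 3 libraries cancel in sum, which by itself lowers the values between different numbers. The study removed a day effect for its displays, and no source says that the number is the day.

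The members, gene lists and tests were chosen with earlier results of these data known. Named were the called genes, the 10 genes per direction with the smallest p among those with an unadjusted p below 0.05, a fold above 1.5, 1 direction in all 3 numbers and a mean log2 CPM over the 6 libraries of 1 or more, the 5 per direction with the smallest p called without Memantine 3, and per list up to 4 members with the smallest p. Fos, Anxa1, Aldoc, Cdk1, Slc17a7, Ptgs2 and other members named beside a list count were taken as examples after their values were seen. The alternatives were DESeq2 1.42.0, the likelihood-ratio test, RLE size factors, other filters, 6 libraries only, the ribosomal RNA share, no block and each library left out. Without Control 1 and DESeq2 without Memantine 3 were added after seeing the data. The fits were tested on simulated data. Figures used matplotlib 3.10.9. Single genes of some lists are not reported here.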

Additional observations from a re-analysis of the deposited data

How the results depend on the processing

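The number of called genes depended on the test and on the libraries. With all libraries it was 1, as it was with RLE size factors, a minimum count of 50, ribosomal RNA rows removed, or without Control 1. It was 0 without the replicate block (1038 genes at an unadjusted p below 0.05), 467 with DESeq2 and 88 with DESeq2 without the block, 318 with the likelihood-ratio test and 11 with that test without the block, 16 without a filter on low counts, 5 with the 6 libraries only and 13 with the ribosomal RNA share as a covariate. Leaving out 1 library gave 0 to 2257 called genes, the highest being DESeq2 without Memantine 3. With edgeR's quasi-likelihood test Memantine 3 left out gave 1173 with the block and 357 without it, and each of the other 5 libraries left out gave 0 to 2. By the looser criterion 1776 genes were counted with all libraries, 1034 without the block and 1144 with the likelihood-ratio test without the block, and 453 to 3930 when 1 library was left out. With the block it was 1110 without Glutamate_vesicles 1, 870 without Memantine 1, 1113 without Memantine 2 and 3576 without Memantine 3. With neither the block nor the library it was 890 without Glutamate_vesicles 1, 873 without Glutamate_vesicles 2, 453 without Glutamate_vesicles 3, 584 without Memantine 1, 858 without Memantine 2 and 2369 without Memantine 3. The share of these genes that was higher with vesicles was 32.8% with all libraries and 17.4% without the block. None of the 27 named genes changed sign under any alternative, but their choice largely set this. They were picked for the smallest p, and most of them also for 1 direction in all 3 numbers. Of 675 values of named genes under the alternatives, 10 lost the call (all Gja5) and 169 gained one. Of 899 list medians, 46 moved by more than the spread between numbers, and the cause was not tested; no endothelial marker was left at a minimum count of 50. With 3 libraries a group, differences confined to 1 library cannot be told from spread, and genes with few counts, such as Postn, carry a wide counting interval.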

Other observations

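Further gene groups had few members that met the looser criterion with all libraries, and some had more without Memantine 3. In that fit 1738 of all 14650 genes met it as higher and 1838 as lower. Of 17 endoplasmic reticulum chaperones 1 (Pdia4) met the looser criterion as higher with vesicles, although 16 of 17 had a log2 fold change above 0 and the median was 0.38. Without Memantine 3, 4 met it and 1 was called. Of 15 heat shock genes 1 (Hspb1) did so, with 162, 48.7 and 48.9 CPM in the vesicle libraries and 50, 2.50 and 43.1 CPM in the memantine libraries, and without Memantine 3, 3 did so and none was called. Of 20 lysosomal and endocytic genes 1 (Cd9) and of 15 Bcl2 family genes 1 (Bnip3, a mitophagy receptor) met it as higher. Without Memantine 3 the lysosomal count was 6, of which 4 were called, and the Bcl2 count stayed at 1. None of the 13 mitochondrially encoded respiratory chain genes met it, and their median log2 fold change was 0.05. Of 19 cholesterol genes 1 was lower, Hmgcs1, an early enzyme of the pathway, with 333, 301 and 238 CPM against 684, 593 and 394 CPM and no overlap of the groups (log2 fold change -0.93, SE 0.28, adjusted p = 0.190, and 0.0434 without Memantine 3).

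Of 22 insulin, IGF and PI3K-Akt genes 3 met the looser criterion as lower (Pik3cd, Pik3cb and Pdpk1) and 1 (Akt2) as higher. Only 1 was lower without Glutamate_vesicles 1, Memantine 1 or Memantine 2, whereas 6 were lower and 2 higher without Memantine 3. The list median ranged from -0.87 to 0.59 over the alternatives and so changed sign. Pik3cd, a catalytic subunit of PI3-kinase, stood at 2.59, 3.33 and 2.82 CPM with vesicles and at 10.8, 10.6 and 3.88 CPM with memantine. Of 14 interferon-stimulated genes 1 (Rsad2, an antiviral enzyme) was lower, and 368 of its 370 counts in the memantine group came from Memantine 2. The count of this list was 0 without Memantine 2, 0 without Glutamate_vesicles 2, 4 without Glutamate_vesicles 1 and 1 without Memantine 3. Mx1, another antiviral gene, had 65 of 69 memantine counts in the same library. Vgf, a neuropeptide precursor induced by activity, ran against most neuronal genes, with 135, 147 and 263 CPM in the vesicle libraries and 157, 17 and 37 CPM in the memantine libraries (log2 fold change 1.82, SE 0.69, adjusted p = 0.280, and 0.266 without Memantine 3). Memantine 1 lay inside the vesicle range for this gene.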
